A study of Bos taurus with 11 samples.

Results

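The transcripts that encode the enzymes and readers of DNA methylation were followed in single bovine blastocysts lacking GATA3 or CDX2. The set held 9 genes, DNMT1, DNMT3A, DNMT3B, TET1, TET3, UHRF1, MBD2, MBD3 and TRIM28. They were chosen by name for their roles, with their values in these same comparisons already known, so the values below are a description and carry no test. Of the 9 genes, 6 were matched to a row in both deposited tables through their RefSeq accessions. TET1, TET3 and MBD2 were matched to no row and were not analysed here, which says nothing about their expression. The 6 genes thus hold no TET enzyme. The tables listed 8576 transcripts for GATA3 KO and 12047 for CDX2 KO.

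All embryos were day 7 early blastocysts from in vitro fertilization of oocytes from abattoir ovaries, and all were injected at the zygote stage with mRNA of the cytosine base editor BE3. The 3 WT control embryos received BE3 mRNA only. The 4 GATA3 KO and the 4 CDX2 KO embryos also received a cocktail of sgRNAs placed to turn codons of the target gene into premature stops, and an embryo edited in this way can be a mosaic of cells. GATA3 and CDX2 are transcription factors of the trophectoderm, the outer layer of the blastocyst that forms the placenta. RNA was sequenced from each embryo alone by Smart-seq2, which copies polyadenylated RNA from oligo(dT), without molecular identifiers.

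DNA methylation is placed on cytosines next to guanines. DNMT3A and DNMT3B set new methylation, and DNMT1 copies it to the new strand at replication, brought there by UHRF1, which binds hemimethylated DNA. TET enzymes oxidize methylcytosine on the way to its removal. MBD proteins bind methylated DNA or join the NuRD deacetylase complex, and TRIM28 is brought to DNA by KRAB zinc finger proteins and holds imprinted genes and retroelements silent. In mammalian embryos much of the methylation of the gametes is lost during cleavage and set again later in development.

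The values are normalized counts, that is reads per transcript divided by a size factor of the embryo within its table. The 3 WT control embryos are in both tables, with other size factors, so levels are compared only within a table. Recovered reads totalled 150057 to 540775 per embryo in the table of GATA3 KO and 100731 to 662962 in that of CDX2 KO, where embryo 3 was lowest. The same WT control embryos had a median of 1.8 to 1.87 times as many reads per transcript in the table of CDX2 KO, and their reads of the 6 genes were 1.57 to 1.94 times as many. GATA3 stood at 71.3 to 87.6 in WT control and at 9.85 to 13.1 in GATA3 KO. CDX2 stood at 6.88 to 11.1 in WT control and at 1.66 to 4.66 in CDX2 KO, where 3 reads correspond to 1.61 to 6.99 depending on the embryo. Summed trophectoderm markers were present in all embryos, with ranges that overlapped between the groups of each table. The cumulus cell list, which marks the somatic cells around the oocyte, summed to 40.0 to 67.6 in WT control and to 73.6 to 108 in CDX2 KO, and its part in the results was not tested. All 3 WT control embryos had Y-linked reads, against GATA3 KO embryo 6 and CDX2 KO embryo 5 alone among the KO embryos at 5 reads or more, so that sex and knockout were largely confounded.

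In GATA3 KO the log2 mean of all 6 genes was below that of WT control, although TRIM28 (by 0.01) turned under TMM scaling and TRIM28 and DNMT3B turned with a term for Y-linked reads. In CDX2 KO DNMT3A, MBD3 and TRIM28 had lower and DNMT1, DNMT3B and UHRF1 higher log2 means, of which TRIM28, DNMT1 and UHRF1 turned with that term and TRIM28 also after quantile normalization. The median difference of the 6 was -0.45 in GATA3 KO, against 0.11 over the 4271 transcripts with a mean of at least 10. UHRF1 is not among these, and the median of the 5 genes that are was also -0.45. The 4271 were not matched to the 6 in level, and the balance of directions changed with the filter. Of the 4271, 7.05% were lower and 11.9% higher in all GATA3 KO embryos, and of the 8576 listed 10.2% and 7.07%. In CDX2 KO the median difference of the 6 was -0.11, against -0.15 over 5719 transcripts. In a single embryo, fewer cells of a type and less RNA per cell cannot be told apart. Of the genes with a mean of at least 10, which were 5 of the 6 in GATA3 KO and all 6 in CDX2 KO, 0 were past the threshold (an adjusted p of at most 0.05 and a fold of at least 1.5 or at most 0.6), a count given as a description only. The threshold was passed by 2.01% of transcripts in GATA3 KO (86 of 4271) and by 0% in CDX2 KO (0 of 5719, limma). At an unadjusted p under 0.05 the CDX2 KO comparison held 187 transcripts, and DESeq2 called 9 and edgeR 1.

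**Figure D1:**
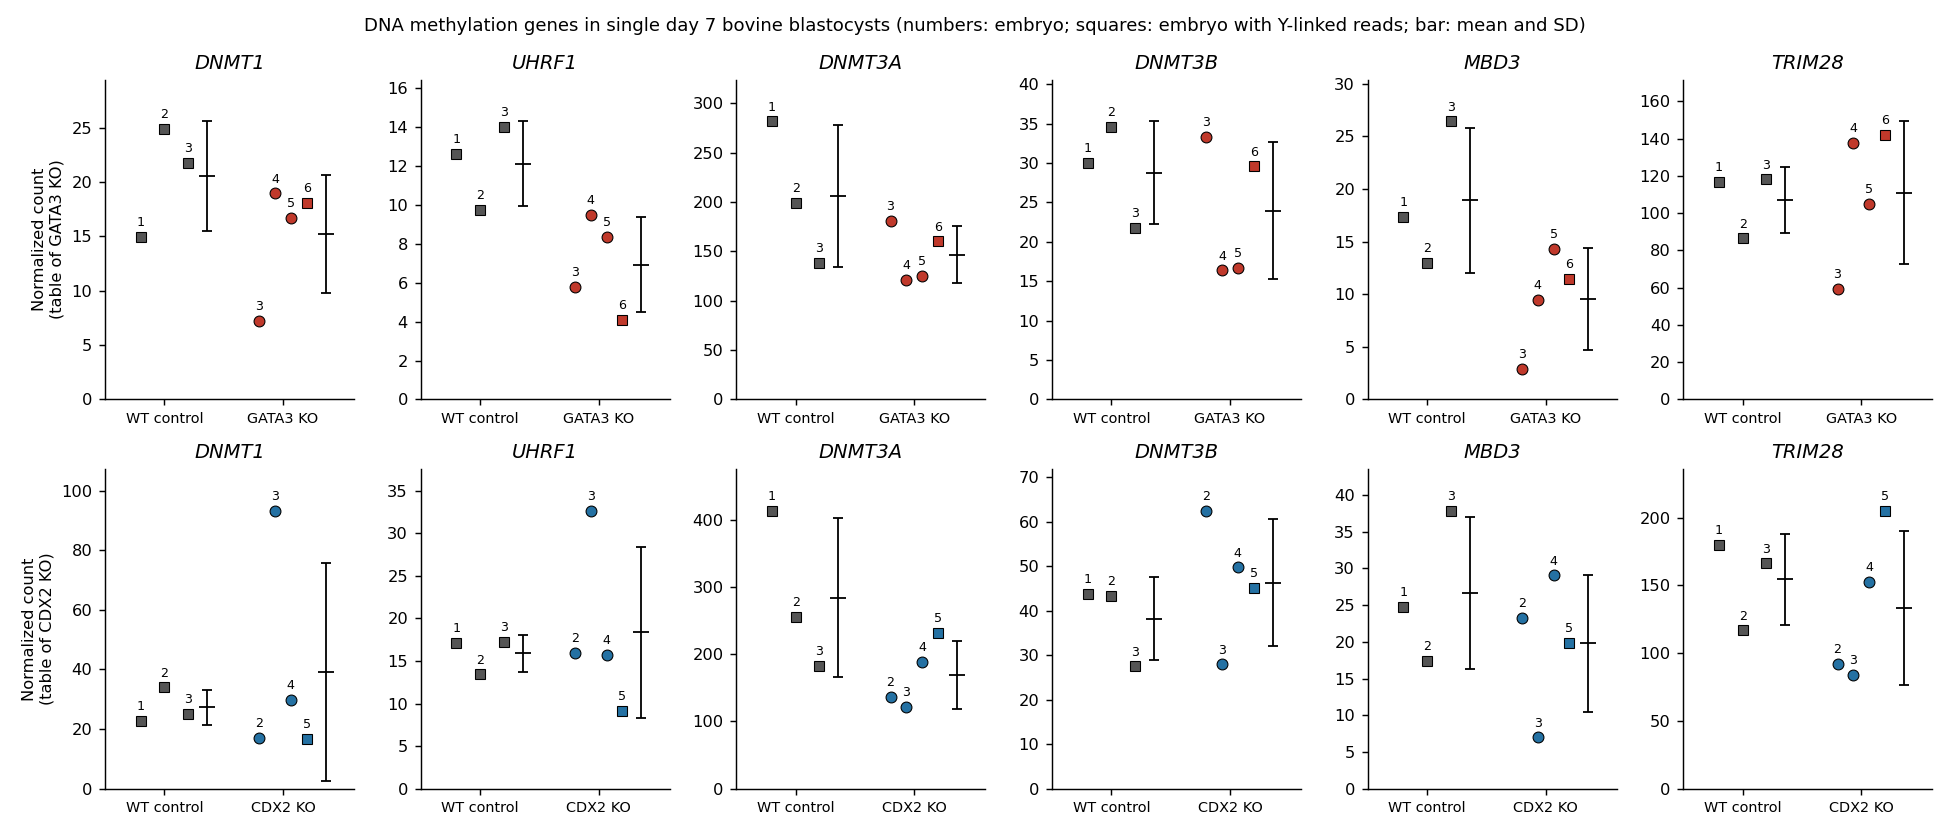
Normalized count (linear axes from 0) of 6 DNA methylation genes in each embryo, with the table of GATA3 KO above and that of CDX2 KO below. Points are embryos with their numbers, squares have Y-linked reads, and the bars give the mean and SD of 3 WT control or 4 KO embryos. UHRF1 in the table of GATA3 KO is the panel without overlap, with 4.11 to 9.48 in GATA3 KO below the 9.73 to 14.0 of the controls, and CDX2 KO embryo 3 stands alone for DNMT1 at 93.2.

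DNMT1 (NM_182651), the maintenance methyltransferase, had normalized counts of 15.0, 24.9 and 21.8 in WT control embryos 1 to 3. In GATA3 KO embryos 3 to 6 it had 7.24, 19.0, 16.7 and 18.1. Embryo 3 lay below the range of WT control and the other 3 KO embryos lay inside it. GATA3 KO averaged 15.2 ± 5.41 (SD, n = 4) and the controls 20.5 ± 5.04 (SD, n = 3), a difference of -0.46 (SE 0.37) in mean log2(normalized count + 1), the scale of all differences below. The reads behind each value numbered 5 to 44, so counting error is large. The difference was -0.16 without GATA3 KO embryo 3, which held the 5 reads, and -0.15 with a term for Y-linked reads.

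In the table of CDX2 KO, DNMT1 had 22.8, 34.0 and 25.2 in WT control and 17.2, 93.2, 29.9 and 16.6 in CDX2 KO embryos 2 to 5. Embryo 3, the shallowest embryo, was above every other and rested on 40 reads. Embryos 2 and 5 were below WT control. The difference of 0.15 (SE 0.55) turned to -0.38 without embryo 3 and to -0.66 with the Y-linked term. It was 0.04 without WT control embryo 1, 0.31 without WT control embryo 2, 0.41 without CDX2 KO embryo 2 and 0.42 without CDX2 KO embryo 5. Quantile normalization gave 0.36, edgeR 0.56 and DESeq2 0.69. The summed oocyte marker list was 46.6, 72.2, 63.9 and 27.9 in CDX2 KO embryos 2 to 5, against 20.3 to 44.2 in WT control, and its 72.2 in embryo 3 rested on 31 reads. The list was above the controls in embryos 2, 3 and 4, and its 46.6 in embryo 2 rested on 38 reads. The part of oocyte transcripts in the value was not tested.

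UHRF1 (NM_001103098), the partner of DNMT1 at hemimethylated DNA, had 12.6, 9.73 and 14.0 in WT control and 5.79, 9.48, 8.34 and 4.11 in GATA3 KO. It was the only one of the 6 genes whose groups did not overlap in that comparison, and the gap between the nearest embryos was narrow. Of the 8576 transcripts listed, 10.2% were lower and 7.07% higher in all GATA3 KO embryos than in all WT control embryos. The mean was 12.1 ± 2.18 (SD, n = 3) against 6.93 ± 2.43 (SD, n = 4), with a difference of -0.77 (SE 0.49), or -1.35 with the Y-linked term, which rests on embryo 6. Its mean over the 7 embryos, 9.15, was under the minimum of 10, so it was not among the transcripts tested, and it rested on 4 to 22 reads per embryo.

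In CDX2 KO the levels of UHRF1 were 15.9, 32.6, 15.8 and 9.13, beside 17.1, 13.4 and 17.2 in WT control. Embryo 3 was above and embryo 5 below WT control, so the KO embryos surrounded the controls. The difference was 0.07 (SE 0.47), and -0.24 without embryo 3, -0.04 without WT control embryo 2 and 0.33 without CDX2 KO embryo 5. It was -0.73 with the Y-linked term and 0.30 with DESeq2, so no direction held. DNMT1 and UHRF1 were thus both highest in the same CDX2 KO embryo. No gene of the 6 was without overlap in CDX2 KO, where 2.33% of the 12047 transcripts listed were lower and 3.41% higher in every KO embryo.

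DNMT3A (NM_001206502), a de novo methyltransferase, had 282, 199 and 138 in WT control and 181, 121, 125 and 160 in GATA3 KO. Embryos 4 and 5 lay below WT control embryo 3, the lowest control. The mean was 206 ± 72.0 (SD, n = 3) against 147 ± 28.7 (SD, n = 4), a difference of -0.45 (SE 0.27). The WT control embryos spread more widely than the KO embryos, and the difference was -0.20 without WT control embryo 1 and -0.71 without WT control embryo 3.

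In the table of CDX2 KO, DNMT3A had 413, 256 and 182 in WT control and 136, 121, 188 and 231 in CDX2 KO. Embryos 2 and 3 were below every control, and embryos 4 and 5 lay within the controls' range. The difference was -0.71 (SE 0.43), -0.40 without WT control embryo 1 and -0.99 without WT control embryo 3. It was -0.27 after quantile normalization and -0.21 with the Y-linked term. The summed trophectoderm list was 13705, 9640 and 5388 in the controls, by embryo number, and 4340, 2705, 8884 and 7138 in CDX2 KO embryos 2 to 5. CDX2 KO embryos 2 and 3 were below every control for DNMT3A and for this list, which holds GATA3 and CDX2 themselves. The controls stood in the same order for both, but KO embryos 4 and 5 stood in opposite order. In the table of GATA3 KO that list was 8866, 7013 and 3838 in the controls and 5997, 4177, 5017 and 4698 in KO embryos 3 to 6, where the controls again stood in the order of DNMT3A. There KO embryos 4 and 5 lay below every control for DNMT3A and not for the list, and embryos 5 and 6 stood in opposite order. The part of the trophectoderm in the values of DNMT3A was not tested. Both knockouts had lower means. The comparisons share their WT control embryos, among which embryo 1 was the highest in both tables, so the 2 differences are not independent.

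DNMT3B (NM_181813), the other de novo methyltransferase, had 30.0, 34.6 and 21.8 in WT control and 33.3, 16.4, 16.7 and 29.6 in GATA3 KO. The KO embryos fell into 2 within and 2 below the range of WT control. The means were 28.8 ± 6.50 (SD, n = 3) and 24.0 ± 8.74 (SD, n = 4), with a difference of -0.30 (SE 0.33). It was -0.15 without GATA3 KO embryo 4 or embryo 5, -0.16 without WT control embryo 2 and -0.48 without WT control embryo 3. With a term for Y-linked reads the difference was 0.06, and in that fit it rests on embryo 6 alone.

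In CDX2 KO, DNMT3B was higher rather than lower, at 62.5, 28.0, 49.8 and 45.1, beside 43.8, 43.4 and 27.5 in WT control. Embryos 2, 4 and 5 lay above every control and embryo 3 among them. The difference was 0.25 (SE 0.41), 0.03 without WT control embryo 3, 0.09 without CDX2 KO embryo 2 and 0.46 without CDX2 KO embryo 3. With all embryos it was smaller than its standard error.

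**Figure D2:**
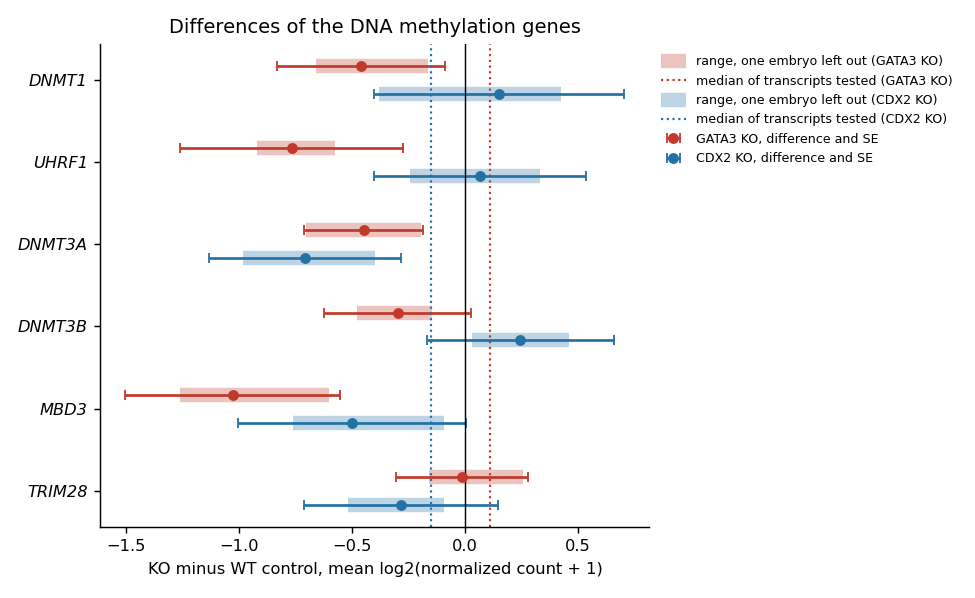
Difference of KO minus WT control in mean log2(normalized count + 1) for 6 genes, with the standard error as a bar, the range over fits without one embryo as a band, and dotted lines at the median of the transcripts tested (0.11 in GATA3 KO, -0.15 in CDX2 KO). The differences of GATA3 KO lie between -1.03 for MBD3 and -0.01 for TRIM28, and those of CDX2 KO between -0.71 for DNMT3A and 0.25 for DNMT3B.

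MBD3 (NM_001128505), a subunit of the NuRD complex, had 17.4, 13.0 and 26.4 in WT control and 2.89, 9.48, 14.3 and 11.5 in GATA3 KO. Embryos 3, 4 and 6 were below every control, and embryo 5 was above WT control embryo 2. The mean was 18.9 ± 6.86 (SD, n = 3) against 9.54 ± 4.85 (SD, n = 4), a difference of -1.03 (SE 0.48). Embryo 3 rested on 2 reads, under the floor of 3 reads used here. Without it the difference was -0.60, smaller in size than that of UHRF1 without the same embryo (-0.71), and with the Y-linked term it was -0.62.

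In the table of CDX2 KO, MBD3 had 24.7, 17.4 and 37.8 in WT control and 23.3, 6.99, 29.0 and 19.9 in CDX2 KO. Embryo 3 alone was below the controls, with 3 reads. The difference was -0.50 (SE 0.51), -0.09 without that embryo, -0.22 without WT control embryo 3 and -0.76 without WT control embryo 2. With DESeq2 it was -0.27.

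TRIM28 (NM_001206809), the corepressor of KRAB zinc finger proteins, had 117, 86.5 and 118 in WT control and 59.3, 138, 105 and 142 in GATA3 KO. Embryo 3 was below and embryos 4 and 6 were above all controls, so that the difference of -0.01 (SE 0.29) joined embryos of both directions. Without embryo 3 it was 0.26. With TMM scaling it was 0.06 and with the Y-linked term 0.42, so no direction held.

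In CDX2 KO, TRIM28 had 91.9, 83.9, 153 and 205, beside 180, 117 and 166 in WT control. Embryos 2 and 3 were below and embryo 5, the embryo with Y-linked reads, was above the controls. The difference was -0.28 (SE 0.43), with -0.09 without CDX2 KO embryo 3, -0.14 without embryo 2, -0.16 without WT control embryo 1, -0.47 without WT control embryo 2 and -0.52 without CDX2 KO embryo 5. It was 0.06 after quantile normalization and 0.43 with the Y-linked term, which rests on embryo 5.

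The ratio of the reads of 2 genes within an embryo does not depend on the size factor. Among the 15 pairs of the 6 genes in the table of CDX2 KO, 1 did not overlap between the groups, DNMT3A per DNMT3B, against 5.73% of all pairs of tested transcripts. The ratio was 9.43, 5.89 and 6.62 in WT control and 2.18, 4.33, 3.78 and 5.13 in CDX2 KO, with means of 7.32 ± 1.87 (SD, n = 3) and 3.86 ± 1.25 (SD, n = 4). In 3 of the 4 KO embryos the ratio was below 5, and embryo 5, which carried Y-linked reads, was nearest to the controls. Its exact binomial interval of 95%, 4.05 to 6.56, overlapped that of WT control embryo 2, 4.42 to 7.99. So did those of CDX2 KO embryo 3, 2.28 to 8.92, and embryo 4, 2.84 to 5.12. The interval of CDX2 KO embryo 2, 1.55 to 3.09, lay below those of all controls, whose lowest bound was 4.30. These intervals cover counting error only, and would be too narrow if the larger number of reads in this table came from counting a fragment more than once. With the reads halved, an alternative added after the data were seen, the interval of embryo 2 reached up to 3.57 and the lowest bound of the controls was 3.61. In GATA3 KO the ratio was 6.44 ± 1.17 (SD, n = 4) against 7.17 ± 1.95 (SD, n = 3), with groups that overlapped.

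Among the 10 pairs of the 5 genes with a mean of at least 10 in the table of GATA3 KO, 1 did not overlap, MBD3 per TRIM28, against 17.5% of all pairs. It was 0.149, 0.150 and 0.224 in WT control and 0.0488, 0.0688, 0.136 and 0.0809 in GATA3 KO. The value of embryo 3 rested on 2 reads of MBD3, under the floor of 3 reads. The 95% counting intervals of all GATA3 KO embryos overlapped those of WT control embryos 1 and 2. These 2 began at 0.0904 and 0.0744, and the lowest upper bound in GATA3 KO was 0.106, in embryo 4. The gap between the nearest embryos, 0.136 and 0.149, was thus within counting error. In CDX2 KO the ratio of MBD3 per TRIM28 ran from 0.0833 to 0.253, around the 0.137 to 0.228 of WT control.

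**Figure D3:**
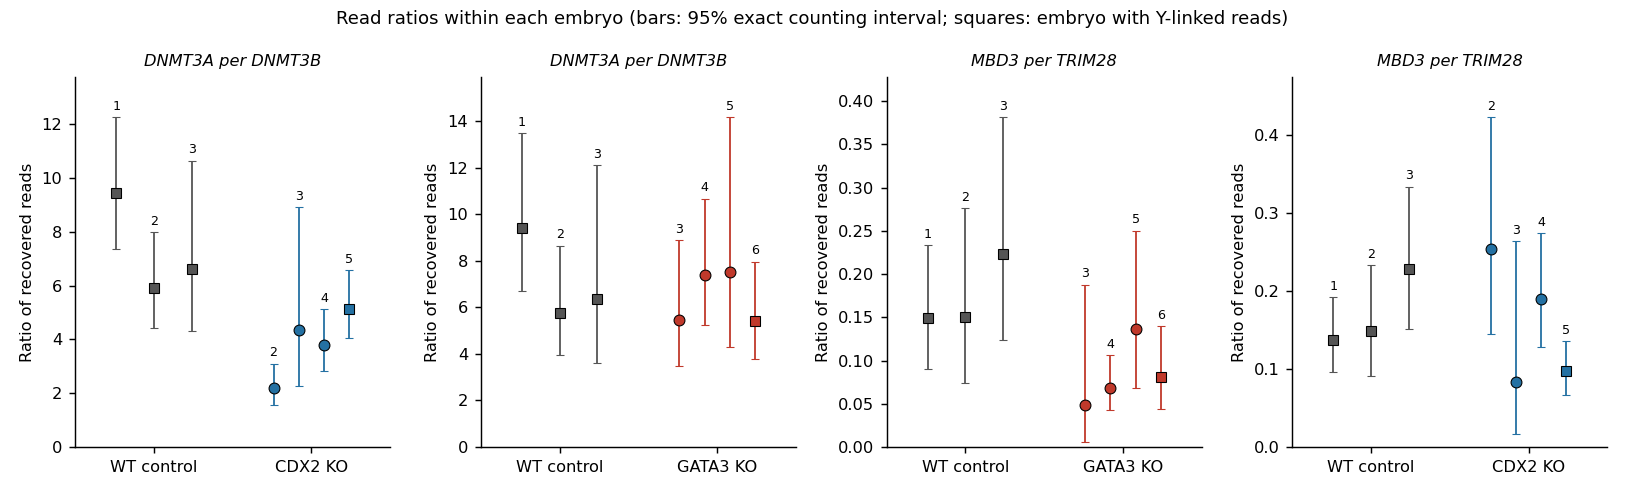
Ratio of recovered reads within each embryo for DNMT3A per DNMT3B and MBD3 per TRIM28, on axes that start at 0, with 95% exact counting intervals and squares for embryos with Y-linked reads. DNMT3A per DNMT3B runs from 2.18 to 5.13 in CDX2 KO and from 5.89 to 9.43 in WT control. The interval of CDX2 KO embryo 2 lies below those of all 3 controls (up to 3.57 against 3.61 and more with the reads halved). Those of CDX2 KO embryos 3, 4 and 5 overlap that of WT control embryo 2.

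The rest of the pathway was examined through lists that leave out the 9 genes. They held 73 genes, of which 52 were listed and 31 tested in the table of GATA3 KO, and 55 listed and 40 tested in that of CDX2 KO. In GATA3 KO 1 gene rose past the threshold and 0 fell (limma, Benjamini-Hochberg over the table), with 5 at an unadjusted p under 0.05, as were 965 of the 4271 transcripts tested. The means of 18 genes were higher and those of 13 lower, and the median difference was 0.06, against 0.11 over all transcripts tested. In CDX2 KO 0 genes passed, limma, edgeR and DESeq2 alike, with 1 at an unadjusted p under 0.05, as were 187 of the 5719 transcripts tested. There 14 means were higher and 26 lower, and the median difference was -0.13, against -0.15 over all transcripts tested.

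RBBP7 (NM_001034638), the NuRD subunit that binds histones, rose in GATA3 KO. It had 39.5, 28.1 and 24.9 in WT control and 99.9, 99.1, 91.7 and 46.0 in GATA3 KO, above every control in 4 of 4 embryos. The log2 fold change was 1.38 (SE 0.30, limma adjusted p = 0.029). The gene lies on chromosome X in the ARS-UCD2.0 annotation, and embryo 6, the KO embryo with Y-linked reads, was the lowest of the 4. The call was lost in 5 of the 7 fits without one embryo (WT control embryo 2 or 3, or GATA3 KO embryo 3, 4 or 5), where the 7 fits had a limma adjusted p from 0.0056 to 0.137. In those 5 fits the log2 fold change was 1.25 to 1.33. The call was also lost without the trended prior, at the same 1.38 (limma adjusted p = 0.0863), and with the Y-linked term, where the log2 fold change was 0.59 (limma adjusted p = 0.587).

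In CDX2 KO, RBBP7 had 42.9, 9.32, 114 and 52.1, against 59.6, 37.1 and 33.2 in WT control, and the groups overlapped. The other NuRD gene with groups apart in GATA3 KO was HDAC1, a histone deacetylase, at 80.5, 72.4 and 91.7 in WT control and 137, 135, 135 and 121 in GATA3 KO (log2 fold change 0.69, SE 0.23, limma adjusted p = 0.092). The groups did not overlap for 4 genes in the higher and 1 in the lower direction, where 11.9% of transcripts tested were higher and 7.05% lower.

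PCNA, the replication clamp that recruits DNMT1, had 48.1, 53.0 and 34.2 in WT control and 69.5, 66.3, 81.0 and 66.5 in GATA3 KO, a log2 difference of 0.66 (SE 0.26, limma adjusted p = 0.146). POLB, the gap-filling polymerase of base excision repair, differed by 0.64 (SE 0.31, limma adjusted p = 0.234), and its nearest embryos were 18.7 in WT control and 18.8 in GATA3 KO. EHMT1, which methylates histone H3 lysine 9, was the gene apart in the lower direction, with 10.3, 42.1 and 23.3 in WT control and 5.79, 6.89, 9.53 and 4.11 in GATA3 KO. Its log2 difference was -1.64 (SE 0.48, limma adjusted p = 0.066). edgeR and DESeq2 called it, as did 1 of the 6 fits that left an embryo out and kept it in the test. Its mean was 25.2 in WT control and 6.58 in GATA3 KO, on 4 to 16 reads, so it reached the minimum of 10 through the controls. Without WT control embryo 2, at 42.1, it was not tested. With the Y-linked term the difference was -2.16 (limma adjusted p = 0.281).

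In the table of CDX2 KO, groups did not overlap for 1 gene in the higher and 2 in the lower direction, where 2.52% of transcripts tested were higher and 3.36% lower. GATAD2A, a scaffold of NuRD, had 15.9, 8.69 and 9.17 in WT control and 17.2, 35.0, 18.2 and 20.4 in CDX2 KO, a log2 difference of 0.94 (SE 0.44, limma adjusted p = 0.90). ADK, which clears the adenosine left by methyl transfer, had 22.8, 42.7 and 27.5 in WT control and 10.8 to 19.9 in the 4 CDX2 KO embryos (log2 difference -1.09, SE 0.42, limma adjusted p = 0.90). With the Y-linked term the difference of ADK was -0.57. CBX5, the HP1 protein that binds methylated H3 lysine 9, was lower by a smaller amount, at 45.8 to 52.7 in WT control and 34.8 to 41.7 in CDX2 KO (log2 difference -0.36, SE 0.36, limma adjusted p = 0.90). Over the alternatives the difference of CBX5 ran from -0.45 with the Y-linked term to -0.19 after quantile normalization. None of these genes passed the threshold, and ADK rested on 6 reads in embryo 3.

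Levels of the other genes of highest mean in a list overlapped between groups. AHCY, which removes the product of methylation reactions, spanned 83.9 to 131 in GATA3 KO, beside 86.5 to 133 in the controls. PARP1, a sensor of DNA breaks, spanned 51.7 to 100 in GATA3 KO, beside 78.9 to 103. CTCF, the insulator protein at imprinted loci, spanned 14.3 to 41.9 in GATA3 KO, beside 25.9 to 35.7. MBD1, a reader of methylated DNA tested in the table of CDX2 KO only, spanned 3.17 to 9.48 in the controls and 8.29 to 27 in CDX2 KO. In that table CTCF spanned 35.5 to 51.6 in the controls, and in CDX2 KO its values lay between 2.33, in embryo 3 with 1 read, and 45.1. CHD4, the remodelling ATPase of NuRD, spanned 72.5 to 124 in CDX2 KO, beside 81.8 to 112 in the controls. The CDX2 KO embryos spanned 14.0 to 69.3 for PCNA, 107 to 236 for AHCY and 101 to 121 for PARP1, and the controls 48.1 to 73.0, 116 to 208 and 107 to 139 for the same genes. CBX5 spanned 31.8 to 42.9 in GATA3 KO, beside 33.5 to 37.3.

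**Figure D4:**
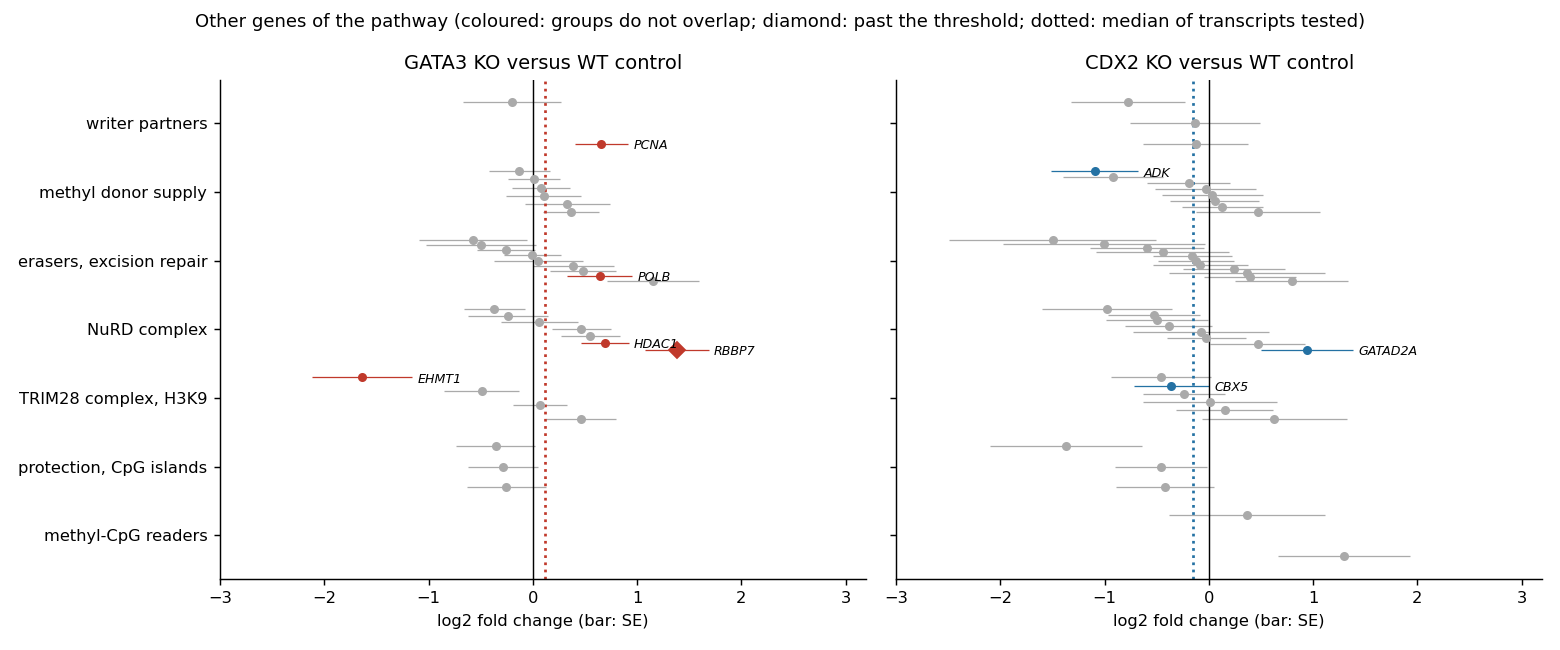
Log2 fold change with its standard error for the tested genes of 7 lists, the 9 genes left out, in GATA3 KO (31 genes) and CDX2 KO (40 genes, 1 of them drawn in 2 lists). Coloured and named genes have groups that do not overlap, the diamond marks RBBP7, the gene past the threshold, at 1.38, and dotted lines mark the medians 0.11 and -0.15.

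The transcripts whose levels ran most like those of each gene were sought over the 7 embryos of the table of GATA3 KO, as a description. DNMT3A ran with FADS3, at a Pearson r of 0.96, or 0.90 without the 2 embryos farthest from the median, and at 0.90 in the table of CDX2 KO, which shares the controls. TRIM28 ran with HNRNPM at 0.98, or 0.80 without 2 embryos, and at 0.85 in the table of CDX2 KO. The transcripts nearest to DNMT1, DNMT3B and MBD3 were POLDIP3, CXXC1 and BCLAF1, at 0.97, 0.97 and 0.98. Without the 2 farthest embryos these were at 0.77, 0.89 and 0.82, and in the table of CDX2 KO at -0.76, -0.64 and 0.59. The 3 controls are common to both tables, and nothing is read from values that are alike in them. With 7 embryos, 6 to 41 transcripts exceeded 0.9 for each of the 5 genes.

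MIR2454 overlaps DNMT1, LOC112448893 and MIR1301 overlap DNMT3A, ARRDC5 overlaps UHRF1 and LOC112447412 overlaps MBD3 in the ARS-UCD2.0 annotation. Among the pathway genes named, AP3M1 and LOC101902916 overlap ADK, LOC132344069 overlaps POLB, LOC132342823 overlaps CTCF, and LOC112446875 and LOC112446759 overlap CHD4. Whether the counting used strand is not given in the sources used here, so reads of these overlaps cannot be told apart.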

How the data were processed

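The members, the lists and the tests were chosen with earlier results of these data known. Per the submitters' notes, the authors used Trimmomatic for trimming, HISAT2 on ARS-UCD1.2 for mapping, featureCounts for counting and DESeq2 for normalization. In the deposited signal each count is divided by a size factor of its embryo, separately in each of 2 tables; all values were whole multiples of 1 step (tolerance 0.1), which gave the reads. The deposited log2 fold changes, errors, statistics and p-values of the authors were not used, and every column of embryo values was used. KO columns were matched to their group only, since their numbers differ from those of the labels. The labels and the paper give different PCR cycle numbers. RefSeq (ARS-UCD2.0) named 98.6% of transcripts. No source says that embryos came from separate collections, so p-values measure the spread between these embryos.

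limma 3.58.1 (R 4.3.3) with a trended prior was fitted within each table to log2(normalized count + 1), keeping transcripts whose mean was 10 or more. It was also run on simulated counts with a dispersion common to all transcripts. These held no outlying embryo and no sex effect, so the run gives no error rate for the embryos here. The threshold was a Benjamini-Hochberg adjusted p of at most 0.05 with a fold of at least 1.5 or at most 0.6. edgeR 4.0.16 and DESeq2 1.42.0 on recovered reads, other pseudocounts (0.1, 5), filters, scalings, a Y-linked term and leaving out each embryo were alternatives. Halved reads were added after the data were seen. For UHRF1 in the table of GATA3 KO the fit was repeated with that transcript kept.

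1 gene was left out of the lists and is not reported here. The genes named were the 9 members, pathway genes past the threshold, those whose groups did not overlap, that of highest mean in each list, and the transcript most like each member. Floors of 3 reads and intervals cover counting error only.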

Additional observations from a re-analysis of the deposited data

Results flagged for a closer look

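RBBP7 in GATA3 KO embryo 6, at a normalized count of 46.0, lay far from the other 3 KO embryos, at 91.7 to 99.9. This was 1 of 30 sets of 4 KO embryos examined, and chance gives about 1.5 at 1 in 20. DNMT1 in CDX2 KO embryo 3, at 93.2, had a gap ratio of 0.827, just under the critical value, and so did HDAC1 in GATA3 KO embryo 6, the lowest of its group at 121. HDAC1 was above the mean of WT control in every GATA3 KO embryo (log2 difference 0.69) and below it in every CDX2 KO embryo (-0.53). The latter was -0.18 without CDX2 KO embryo 3, at 37.3 on 16 reads, and CDX2 KO embryos 4 and 5, at 104 and 103, lay within the 95.6 to 125 of the controls. That difference was not tested, and the comparisons share their controls.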

How the results depend on the processing

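No paired analysis was possible because the KO columns carry numbers other than the replicate numbers of the labels. In GATA3 KO 86 transcripts passed the threshold, 66 higher and 20 lower. The count was 145 with a pseudocount of 5, 172 with no filter, 37 at a mean of at least 100, 131 with TMM (112 higher, 19 lower), 16 without a trend, 158 with DESeq2 (76 higher, 82 lower) and 1 with the Y-linked term. It was 105 after quantile normalization (48 higher, 57 lower), 109 with median ratios (56 higher, 53 lower) and 126 with edgeR (55 higher, 71 lower), and leaving out embryos gave 1 (without WT control embryo 2, or GATA3 KO embryo 3) to 304 (without WT control embryo 1), with 20 without WT control embryo 3 and 25, 45 and 187 without GATA3 KO embryos 4, 5 and 6. The cause was not tested. Of the pathway genes 1 passed, 0 did at a mean of at least 100, without a trend and with the Y-linked term, 2 with edgeR and with DESeq2, and 0 to 2 without one embryo. In CDX2 KO 0 transcripts passed, 1 with a pseudocount of 5, at a mean of at least 100, with median ratios, with edgeR and with edgeR on halved reads, 2 with no filter and with quantile normalization, 9 with DESeq2, and 0 to 1 without one embryo. No pathway gene passed in CDX2 KO under any of these. The Y-linked term moved UHRF1 to -1.35 in GATA3 KO and -0.73 in CDX2 KO, and TRIM28 to 0.43 in CDX2 KO. It rests on 1 KO embryo per table.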
